A study of Mus musculus with 12 samples.

Results

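The genes described here are 8 mouse genes of glucuronidation or related to it: the UDP-glucuronosyltransferases Ugt2a3, Ugt2b1, Ugt2b5, Ugt2b34, Ugt2b35 and Ugt2b36, the related glycosyltransferase Ugt3a2, and Ugdh, which makes the sugar donor. Members were taken as probe sets annotated with exactly 1 of these symbols. Of the 8 genes, 6 were measured, by 7 probe sets, among 12393 genes and 22626 probe sets in all; Ugt2b35 and Ugt2b36 had no probe set of their own symbol alone and were not analysed here. Ugt2b34 had 2 probe sets, and the one with the higher mean stood for the gene.

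UDP-glucuronosyltransferases of the Ugt1 and Ugt2 families sit in the endoplasmic reticulum and join glucuronic acid to steroids, bile acids, bilirubin, drugs and plant compounds. The products are more soluble in water and leave the liver in bile or blood. Liver is the main site of this reaction, and the genes are transcribed in hepatocytes under the control of liver transcription factors and of receptors that sense foreign compounds.

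The mice were female C57BL/6, between 8 and 12 weeks of age. Whole-liver RNA was read on 12 Affymetrix Mouse430A arrays, 3 in each of 4 groups. The groups were HDAC6 knockout (HDAC6-/-), HDAC9 knockout (HDAC9-/-), wild type on a high-fat diet with 60% of energy from fat, begun after weaning, and wild type on chow with 25% of energy from fat. HDAC6 and HDAC9 are histone deacetylases, enzymes that remove acetyl groups from proteins. For the knockouts the labels give neither a diet nor the construction of the allele, so genotype and any difference of diet cannot be told apart. Nothing in the labels ties an array to a mouse of its own, and a p-value here covers only how these arrays spread, which may be technical. Values are log2 expression, on which a difference of 1 is a doubling. A probe set's level depends on its own probes, so levels are compared between arrays and never between genes.

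The array medians lay between 5.78 and 5.86, and pairs of arrays correlated at 0.987 to 0.997 over all probe sets. Hdac6 read 6.17, 6.16 and 6.51 in HDAC6 knockout livers, against 7.89, 7.98 and 7.86 in chow livers. Hdac9 read 4.04, 4.17 and 4.40 in HDAC9 knockout livers, against 4.39, 4.33 and 4.18 in chow livers, near the 25th percentile of all gene means (4.39), so the HDAC9 label could not be checked in this way. Of 10 hepatocyte markers 8 were measured, and their summed level (log2) lay between 16.37 and 16.44 on all 12 arrays. HDAC9 knockout replicate 2 carried the most exocrine pancreas transcripts: the 12 measured markers of 16 lay on average 3.59 above their own means there. The same average was 0.241 on HDAC9 knockout replicate 1 and -0.432 on replicate 3. It lay between -0.63 and -0.09 on the HDAC6 knockout, high-fat and chow arrays, so replicate 1 was raised as well, by less. High-fat replicate 1 was the array with the lowest value for 14.5% of all genes and for 5 of the 7 member probe sets. Among genes above the 25th percentile of means that share was 18%. HDAC6 knockout replicate 1 was lowest for 14% of all genes and for 0 of the member probe sets. Named differences from chow that moved by over 1.5 times without HDAC9 knockout replicate 2 or high-fat replicate 1 are also given without it. This covers only the probe set that stands for each gene.

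Most of the Ugt2 genes lie side by side. In the RefSeq annotation, 10 consecutive protein-coding genes of mouse chromosome 5 are all Ugt2 genes, in the order Ugt2b34, Ugt2b1, Ugt2b35, Ugt2b36, Ugt2b5, Ugt2b37, Ugt2a3, Ugt2b38, Ugt2a1 and Ugt2a2. Of the 8 members, 7 had an entry in the RefSeq promoter table (GRCm38.p6, 250 bases before to 50 after the start); Ugt3a2 is named only. The first 3 windows below are shown because Ugt2b5, Ugt2b37 and Ugt2b38 are near copies in their promoters. Capitals mark the longest run of bases that all 3 share before the start. Ugt2b1 is shown for contrast, with capitals on the longest run it shares with any of them. Each sequence runs 5′ to 3′ on the gene's own strand.
Ugt2b5: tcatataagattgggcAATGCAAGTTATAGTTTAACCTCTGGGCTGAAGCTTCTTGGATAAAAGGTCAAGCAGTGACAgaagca
Ugt2b37: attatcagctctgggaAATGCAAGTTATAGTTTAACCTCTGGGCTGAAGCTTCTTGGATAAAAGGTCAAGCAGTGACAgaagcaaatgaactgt
Ugt2b38: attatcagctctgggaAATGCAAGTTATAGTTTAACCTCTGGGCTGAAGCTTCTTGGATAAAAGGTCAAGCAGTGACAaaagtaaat
Ugt2b1: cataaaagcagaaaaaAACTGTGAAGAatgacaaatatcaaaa

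The Ugt2b5 window is chr5:87140341-87140424, the Ugt2b37 window chr5:87254796-87254889, the Ugt2b38 window chr5:87424204-87424290 and the Ugt2b1 window chr5:86926517-86926559, all on the minus strand. The run shared by the 3 near copies is 62 bases long and ends 7 bases before the start in Ugt2b5, 24 in Ugt2b37 and 10 in Ugt2b38. The longest run Ugt2b1 shares with any of them, which is with Ugt2b37, is 11 bases long. The STAT5 pattern TTCNNNGAA, searched on both strands because growth hormone acts on sex-biased liver genes through STAT5, was in 8.3% of all promoters and in 0 of the 11 of this family and Ugdh. At that share, 0 of 11 does not set these promoters apart from others. Sites further from the start were not searched, so control by STAT5 was not tested.

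Over the 300 bases of the promoter entry Ugt2b37 and Ugt2b38 were 86.9% identical, Ugt2b5 was 84.2% identical to Ugt2b38 and 76.2% to Ugt2b37, and Ugt2b1 was 47.2 to 49.3% identical to the other Ugt2b genes. These identities are of promoters, while array probes read transcripts, whose sequences were not compared here. Whether the probe sets of Ugt2b5, Ugt2b37 and Ugt2b38 also read each other's transcripts was not checked, so which gene they read is uncertain. Their probe sets carry no suffix that marks shared probes. Of the 2 Ugt2b34 probe sets, the one with the higher mean, used for the Ugt2b34 values here, does carry that suffix.

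Ugt2b1 was the member whose group means lay furthest apart, and its lowest mean was in HDAC9 knockout livers. Rat Ugt2b1 glucuronidates morphine and steroids, and in mice the gene is expressed more in males than in females. Ugt2b1 read 11.05, 11.13 and 11.26 in HDAC9 knockout livers, against 11.86, 11.80 and 11.77 in chow livers. All 3 knockout arrays lay below all 3 chow arrays, with means of 11.14 ± 0.108 and 11.81 ± 0.0478 (SD, n = 3 each). Ugt2b1 fell 1.59-fold in the HDAC9 knockout livers, by 0.67 on the log2 scale (SE 0.104, 95% interval -0.889 to -0.443, limma adjusted p = 0.0377). It was the fifth gene of 12393 by p-value in that comparison and the 1 measured member called lower, where 0.0565% of all genes were called lower and 0.0968% in either direction. Fewer hepatocytes in the sample and less RNA per cell cannot be told apart in whole liver.

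The size of the Ugt2b1 difference held when single arrays were left out and its call did not. Over the 6 fits that each left out 1 of the HDAC9 knockout or chow arrays, the difference lay between -0.72 and -0.62, and the adjusted p lay between 0.0657 and 0.165. With HDAC9 knockout replicate 2, the array highest in pancreas markers, left out, Ugt2b1 was at -0.66 (SE 0.120, adjusted p = 0.0944). Without chow replicate 1, the array where it read highest, it was at -0.64 (adjusted p = 0.165). The plot of Ugt2b1 under each setting gives these fits with the changes of model and scaling.

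**Figure D1:**
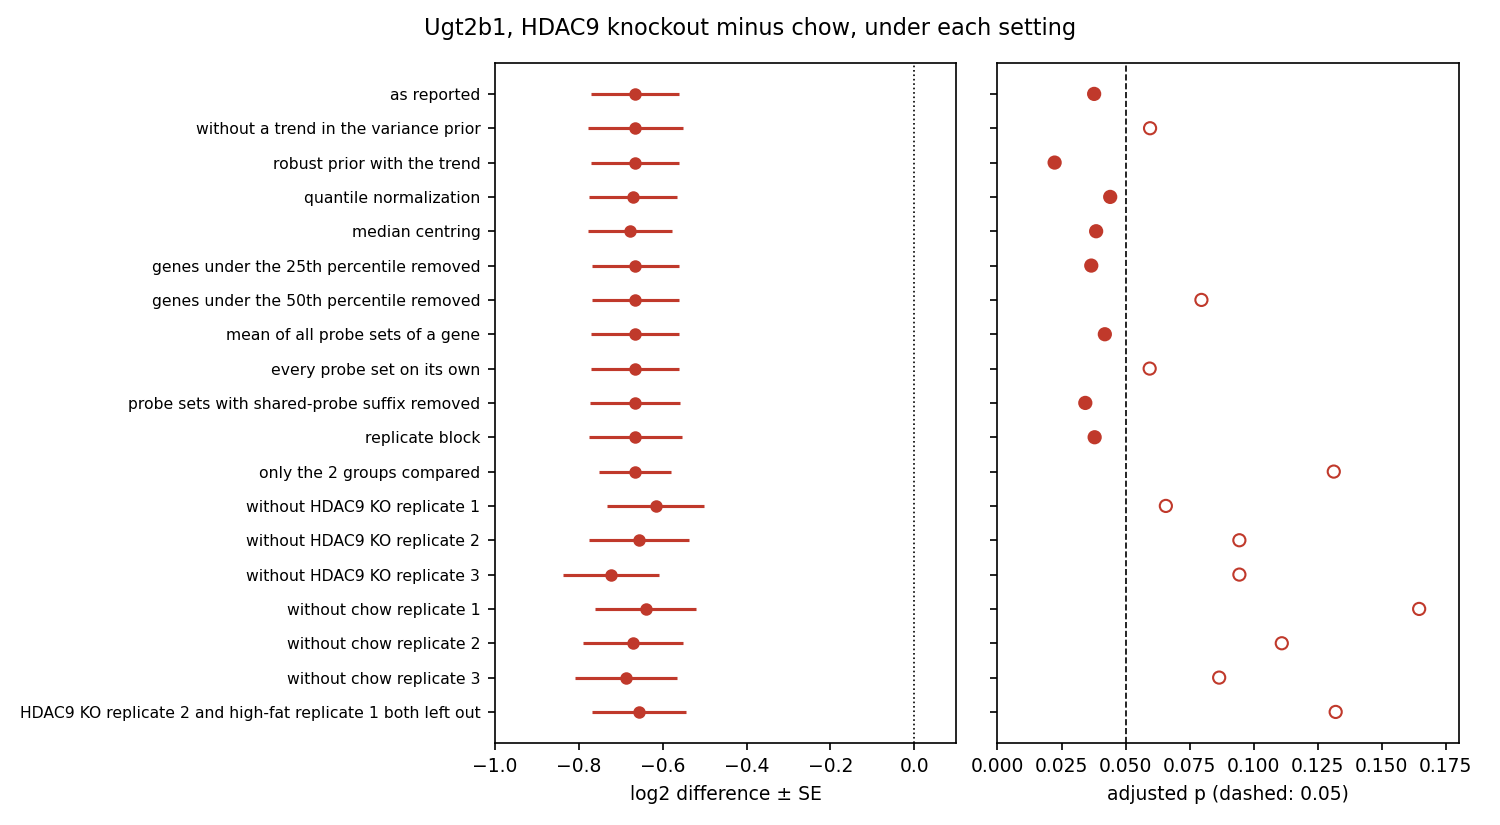
Ugt2b1, HDAC9 knockout minus chow, under each setting tried. The left panel gives the log2 difference with its standard error and the right panel the limma adjusted p, with a dashed line at 0.05 and filled points below it; the difference stays between -0.72 and -0.62 while the adjusted p moves between 0.0223 and 0.165.

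Ugt2b1 was also below chow in the other groups, without passing the test. The HDAC6 knockout arrays read 11.50, 11.58 and 11.18 and the high-fat arrays 11.35, 11.50 and 11.52. All 6 lay below the lowest chow array, at 11.77. The difference from chow was -0.39 in HDAC6 knockout livers (SE 0.104, adjusted p = 0.584) and -0.35 in high-fat livers (SE 0.104, adjusted p = 0.269). HDAC6 knockout replicate 3 stood apart from its group, and without it the HDAC6 difference was -0.27 (adjusted p = 0.729).

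Ugt2b5, a neighbour in the same cluster, had its lowest mean in high-fat livers. It read 12.00, 12.10 and 12.06 there, against 12.40, 12.43 and 12.30 in chow livers, and the 3 high-fat arrays lay below the 3 chow arrays. The difference was -0.32 (SE 0.0912, 95% interval -0.517 to -0.127, adjusted p = 0.245), which did not pass over all genes. Ugt2b5 in HDAC6 knockout livers read 12.39, 12.18 and 12.07, overlapping chow, with a difference of -0.17 (adjusted p = 0.872). In HDAC9 knockout livers it read 12.10, 12.25 and 12.29, just below the lowest chow array, with a difference of -0.16 (adjusted p = 0.832). Ugt2b1 and Ugt2b5 thus had different lowest groups, HDAC9 knockout for Ugt2b1 and high fat for Ugt2b5.

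Ugt2b34 stands at the end of the cluster next to Ugt2b1. Its probe set with the higher mean, the one with the shared-probe suffix, read 12.12, 12.08 and 11.97 in HDAC6 knockout livers, 12.10, 12.00 and 12.11 in HDAC9 knockout livers and 11.74, 12.08 and 12.15 in high-fat livers, against 12.20, 12.25 and 12.23 in chow livers. All 9 arrays of the first 3 groups lay below the lowest chow array. The differences from chow were -0.17 (SE 0.0974, adjusted p = 0.874) for HDAC6 knockout, -0.16 (adjusted p = 0.855) for HDAC9 knockout and -0.24 (adjusted p = 0.502) for high fat. High-fat replicate 1 carried much of the last value: without it the difference was -0.11 (SE 0.0724, adjusted p = 0.795). The other Ugt2b34 probe set, which has no such suffix, fitted among 20380 probe sets, gave -0.07, -0.06 and -0.26 in the same order, with adjusted p = 0.963, 0.955 and 0.570. High-fat replicate 1 read 10.832 on it, against 11.221 and 11.304 on replicates 2 and 3, and no fit without that array is given for it. On that probe set 1 HDAC9 knockout array, replicate 3, read 11.50, above all 3 chow arrays (11.35, 11.40 and 11.40), so the 2 probe sets disagreed on whether the HDAC9 knockout and chow arrays overlap. HDAC9 knockout replicates 1 and 2 read 11.261 and 11.205 on it.

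Ugt2a3, the member of the Ugt2a branch, had small differences and little spread. It read 11.24, 11.19 and 11.23 in HDAC9 knockout livers and 11.19, 11.19 and 11.22 in high-fat livers, against 11.41, 11.36 and 11.35 in chow livers. These 6 arrays all lay below the lowest chow array. The differences from chow were -0.15 (SE 0.0760, adjusted p = 0.826) for HDAC9 knockout and -0.17 (SE 0.0760, adjusted p = 0.552) for high fat, and neither passed. The HDAC6 knockout arrays read 11.32, 11.43 and 11.23, on both sides of the chow arrays, with a difference of -0.05 (adjusted p = 0.964).

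Ugt3a2 has a human counterpart, UGT3A2, that transfers glucose and xylose in place of glucuronic acid. It read 11.69, 11.75 and 11.64 in HDAC6 knockout livers, 11.71, 11.51 and 11.48 in HDAC9 knockout livers and 11.44, 11.72 and 11.67 in high-fat livers, against 11.69, 11.74 and 11.76 in chow livers. Every group overlapped chow. The differences were -0.03 (adjusted p = 0.979), -0.17 (adjusted p = 0.832) and -0.12 (adjusted p = 0.761) in that order, with an SE of 0.0907 each. Without high-fat replicate 1 the last of these was -0.04.

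Ugdh, UDP-glucose dehydrogenase, oxidises UDP-glucose to the UDP-glucuronic acid that all UDP-glucuronosyltransferases of the Ugt1 and Ugt2 families use. It varied most between arrays of 1 group. In HDAC6 knockout livers it read 10.43, 10.89 and 10.37, against 10.20, 11.01 and 10.24 in chow livers, so that replicate 2 stood high in both groups. The HDAC9 knockout arrays read 10.25, 10.28 and 10.68 and the high-fat arrays 9.68, 10.10 and 10.39. The differences from chow were 0.08 for HDAC6 knockout (adjusted p = 0.981), -0.08 for HDAC9 knockout (adjusted p = 0.978) and -0.42 for high fat (adjusted p = 0.639), with an SE of 0.222 each. The interval of the high-fat difference ran from -0.898 to 0.0542. Without high-fat replicate 1 the high-fat difference was -0.23, and without chow replicate 2 it was -0.16. The HDAC9 knockout difference was -0.02 without HDAC9 knockout replicate 2.

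**Figure D2:**
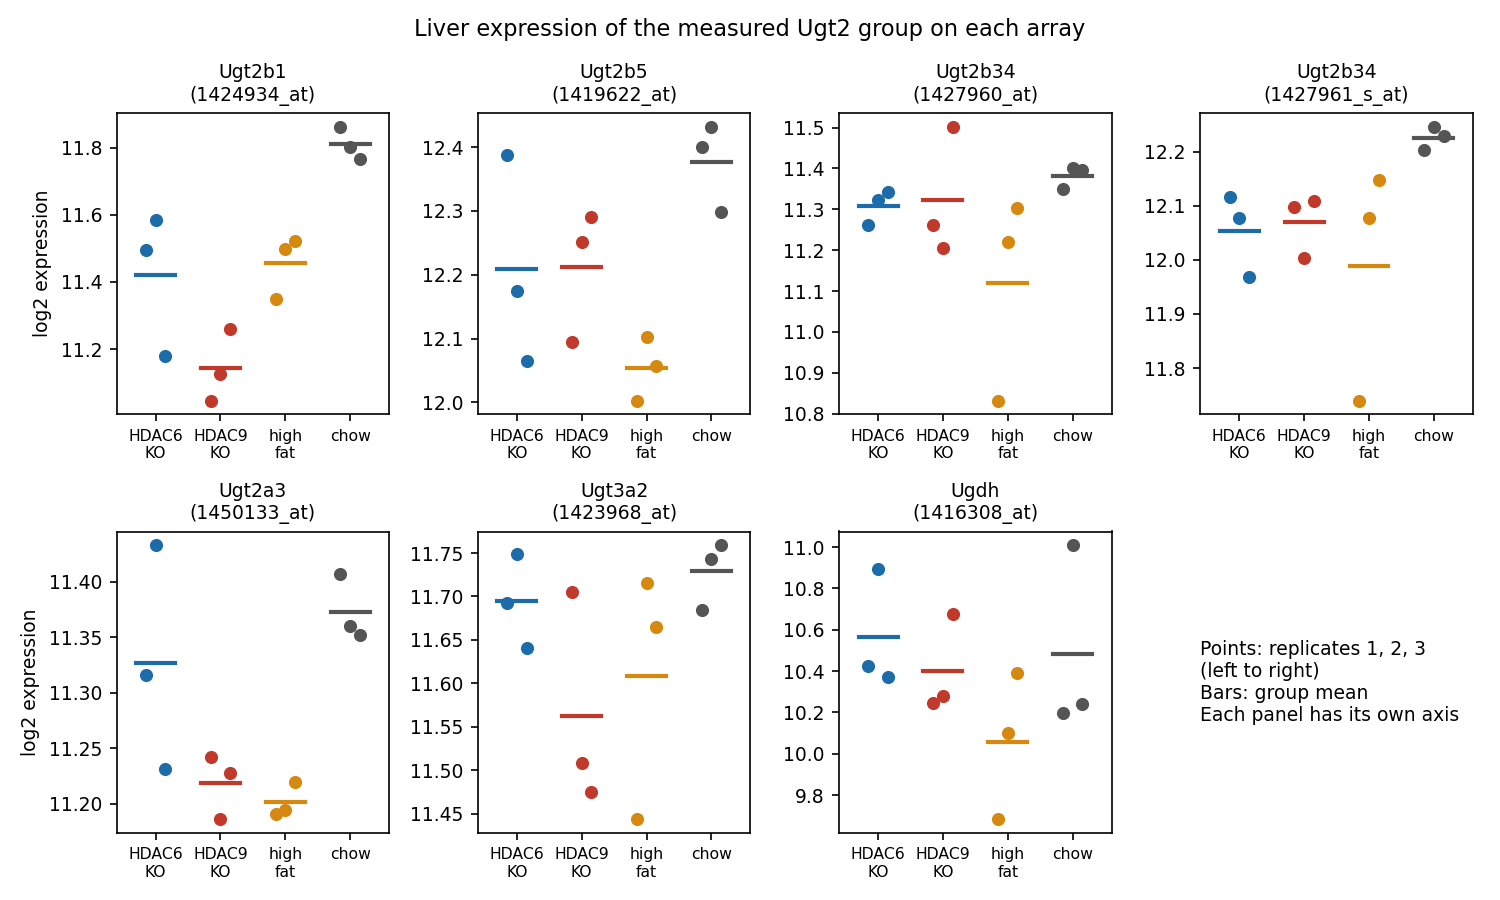
Log2 expression of the 7 member probe sets on each array, 1 panel per probe set with its own axis, for HDAC6 knockout, HDAC9 knockout, high-fat and chow livers. Points are replicates 1 to 3 from left to right and bars are group means; for Ugt2b1 and the higher Ugt2b34 probe set, all 9 other arrays lie below the lowest chow array.

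Across the 6 measured members, chow had the highest mean of the 4 groups for 5, against 30.5% of all genes. Ugdh was the exception, with its highest mean in HDAC6 knockout livers. For Ugt2b1 and Ugt2b34, all 9 arrays of the other groups lay below all 3 chow arrays, as they did for 69 of 12393 genes (0.557%). For Ugt2a3 and Ugt2b5 it was 8 of 9 arrays, for Ugt3a2 5 and for Ugdh 2. These 3 chow comparisons share the same chow arrays, so the members' values stand side by side and their likeness is no separate result.

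In HDAC6 knockout livers 5 of 6 members had a lower mean than in chow livers, with a median difference of -0.11 and a range of -0.39 to 0.08. Over all genes 54.4% had a lower mean and the median was -0.01. The arrays did not overlap, with HDAC6 knockout lower, for 2 members, Ugt2b1 and Ugt2b34, against 5.31% of all genes. No member was called, by limma over all genes, where 0.0161% of genes were, and Ugt2b1 was the 1 member at an unadjusted p under 0.05, in the lower direction, against 3.03% of all genes.

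In HDAC9 knockout livers all 6 measured members had a lower mean, with a median of -0.16 and a range of -0.67 to -0.08, against 54% of all genes and a median of -0.01. The arrays lay below chow without overlap for 4 members, against 7.21% of all genes: Ugt2b1, Ugt2b5, Ugt2b34 and Ugt2a3. Ugt2b1 was called, as given above, and was also the 1 member at an unadjusted p under 0.05 (3.6% of all genes in the lower direction). In high-fat livers all 6 measured members had a lower mean, with a median of -0.28 and a range of -0.42 to -0.12, against 52.8% of all genes and a median of -0.01. The same 4 members lay below chow without overlap, against 7.71% of all genes. These 4 were at an unadjusted p under 0.05, against 4.35% of all genes, and 0 members were called, against 0.29%. Ugt2b5 had the smallest p of them, at 0.00321.

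**Figure D3:**
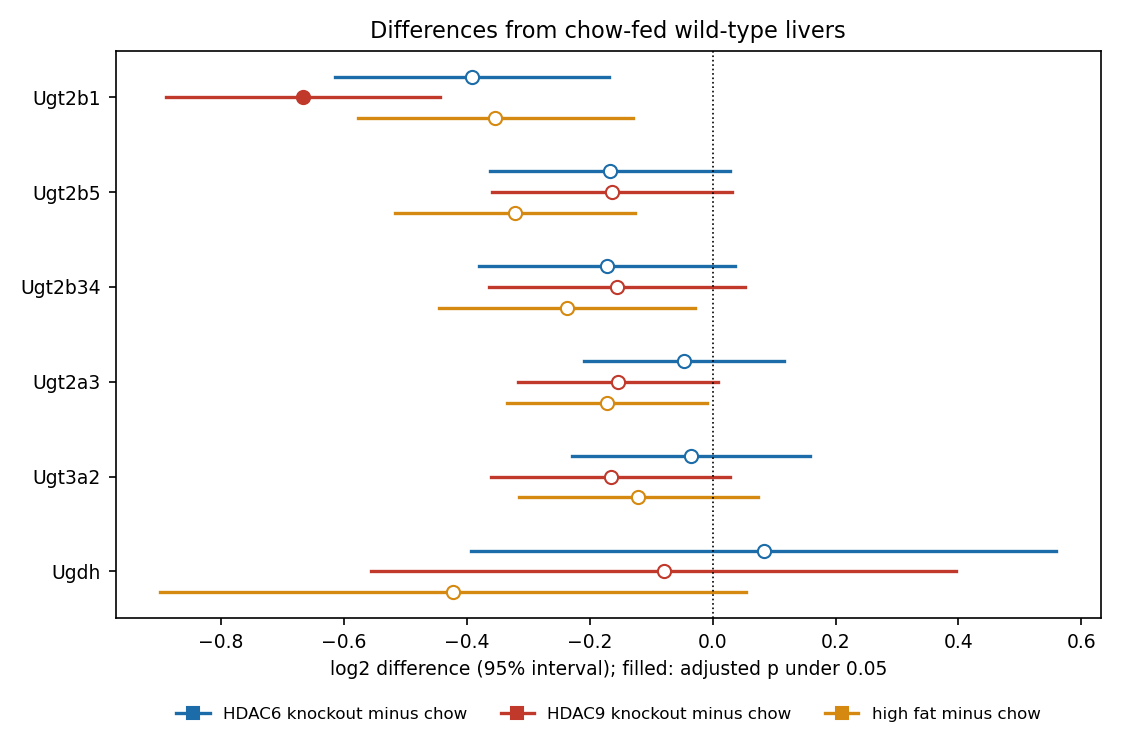
Log2 differences from chow-fed wild-type livers for the 6 measured members, with 95% intervals, for HDAC6 knockout, HDAC9 knockout and high fat. The filled point, Ugt2b1 in HDAC9 knockout livers at -0.67, is the one past an adjusted p of 0.05; Ugdh has the widest intervals.

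Set against each other, the 3 other groups differed in no member past the limma threshold, and 1 member in each comparison had an unadjusted p under 0.05. Ugt2b1 was at 0.31 in high-fat minus HDAC9 knockout livers (SE 0.104, 95% interval 0.0894 to 0.536, adjusted p = 0.341), with every high-fat array above every HDAC9 knockout array. In that comparison 0.436% of all genes were called, 4.46% were higher at an unadjusted p under 0.05, and 7.67% had high-fat arrays above without overlap. In HDAC9 knockout minus HDAC6 knockout livers it was at -0.27 (SE 0.104, 95% interval -0.498 to -0.0517), where the arrays overlapped, 0.00807% of genes were called and 2.02% were lower at an unadjusted p under 0.05. The HDAC9 knockout difference of Ugt2b1 from chow is therefore not shown to differ from those of the other groups. Ugdh was at -0.50 in high-fat minus HDAC6 knockout livers (SE 0.222, adjusted p = 0.647), where 0.145% of genes were called and 3.69% were lower at an unadjusted p under 0.05. For Ugt2b5, high fat minus either knockout was -0.16 (SE 0.0912 each, adjusted p = 0.810 against HDAC6 knockout and 0.761 against HDAC9 knockout). Ordered by group mean, no 2 neighbouring groups differed past the threshold for any member.

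The members' common level differed by array. Averaged over the 6 members, the deviation from each gene's own mean lay between -0.10 and 0.14 on HDAC6 knockout arrays, between -0.12 and -0.00321 on HDAC9 knockout arrays and between -0.27 and -0.01 on high-fat arrays, against 0.10 to 0.26 on chow arrays. High-fat replicate 1 was lowest, and it was the lowest array for 9 of the 14 UGT and Ugdh probe sets drawn in the plot by array. It was the lowest array for 14.5% of all genes and for 18% of genes above the 25th percentile of means, where those 14 also lie. Chow replicate 2 was highest, and it was the highest array for 3 of the 7 member probe sets. The labels give an RNA input of 100 ng for every array. Whether the quality of that RNA, or a departure from that amount, bears on the members was not tested.

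Members varied together to different degrees. Over the 12 arrays, which share groups, Ugt2a3 and Ugt2b1 had the closest relation (Pearson r = 0.736, and 0.760 after group means were removed). Ugt2b34 and Ugt3a2, which are not in the same cluster, had r = 0.700 (0.732 within groups). The pair of Ugt2b1 and its neighbour Ugt2b34 had r = 0.585 (0.572 within groups), while Ugt2b1 and Ugdh had r = 0.246 (0.541 within groups).

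**Figure D4:**
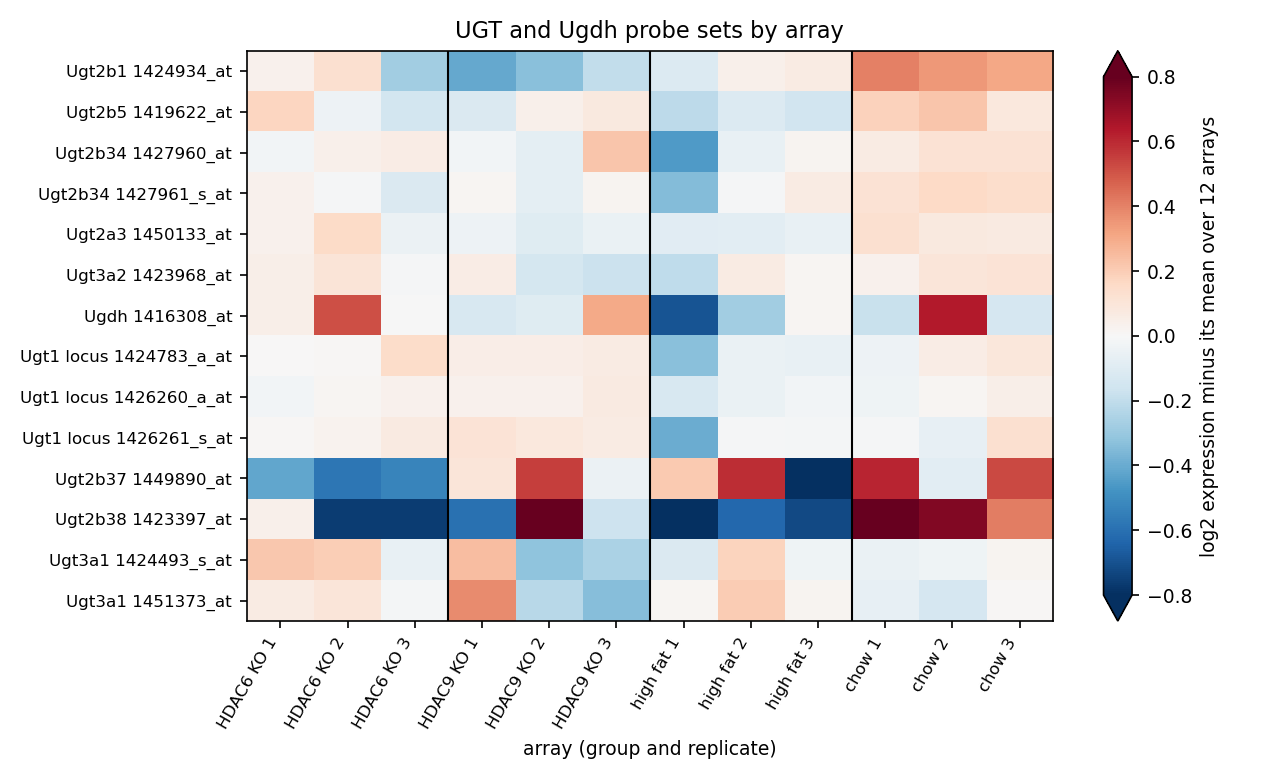
Deviation of each UGT and Ugdh probe set from its own mean over the 12 arrays, as log2 expression, with 1 column per array in the order HDAC6 knockout, HDAC9 knockout, high fat and chow. Red is above and blue below the mean, and colours saturate at 0.8; the Ugt2b1 row is red on the 3 chow arrays and blue on the 3 HDAC9 knockout arrays, and high-fat replicate 1 is blue in all 7 member rows.

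Of the 15 other UGT genes listed, 4 were measured by a probe set of their own symbol, and 0 were called by limma in a chow comparison (unadjusted p under 0.05 for 2 lower in HDAC6 knockout, 0 in HDAC9 knockout and 1 lower in high-fat livers). For this and the next lists, 3.03%, 3.6% and 4.35% of all genes were lower at that threshold in the same order. Higher at it were 340, 308 and 512 of 12393 genes. Ugt2b38 read 3.95, 4.37 and 4.28 in high-fat livers, against 6.63, 5.74 and 5.41 in chow livers, without overlap. Its difference was -1.73 (SE 0.479, adjusted p = 0.239). The high-fat values lie at or below the 25th percentile of gene means, 4.39, which limits the size given, and in HDAC9 knockout livers the same probe set read 4.40, 6.85 and 4.83. Ugt2b37 read 7.08, 6.92 and 6.97 in HDAC6 knockout livers, against 8.10, 7.41 and 8.03 in chow livers, and did not pass (difference -0.86, SE 0.299, adjusted p = 0.757). Ugt2b38 was at -1.42 in the same comparison (adjusted p = 0.734). The Ugt1 locus, whose genes share their last exons, was read by 3 probe sets that each carry 8 symbols. These 3 probe sets were lowest on high-fat replicate 1 and spanned 0.202 to 0.529 over the 12 arrays.

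Genes that make, carry or use UDP-glucuronic acid, its precursors or other UDP-sugars showed no call in a chow comparison. Of 12 listed, 8 were measured and 0 passed by limma, with 1 lower at an unadjusted p under 0.05 in each comparison. In both knockouts that gene was Slc35a3. Slc35d1, which carries UDP-glucuronic acid into the endoplasmic reticulum, was at -0.37 in high-fat livers (SE 0.150, adjusted p = 0.495) and at -0.16 without high-fat replicate 1 (adjusted p = 0.816). Hk1, a hexokinase, was at -0.22 (adjusted p = 0.648). In HDAC9 knockout livers Slc35a3, a transporter of UDP-N-acetylglucosamine in the Golgi, was at -0.40 (adjusted p = 0.741) and Slc35d1 at -0.28 (adjusted p = 0.832). Slc35a3 was at -0.33 in HDAC6 knockout livers and Pgm1, phosphoglucomutase, at 0.25 (adjusted p = 0.865 for both).

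Of 9 genes that act on glucuronic acid or glucuronides after the reaction, 8 were measured and 0 passed against chow by limma. At an unadjusted p under 0.05, 1 was higher in HDAC6 knockout, 1 lower in HDAC9 knockout, and 2 lower and 1 higher in high-fat livers. Cryl1, which oxidises gulonate, read 6.48, 6.50 and 6.42 in high-fat livers, against 7.29, 7.27 and 7.28 in chow livers. It read 7.90, 7.22 and 7.24 in HDAC6 knockout livers and 6.76, 7.61 and 7.55 in HDAC9 knockout livers. The high-fat and chow arrays were tight and apart while the knockout arrays, which enter the same estimate of spread, were wide. The high-fat difference from chow was -0.82 (SE 0.206, adjusted p = 0.174). Gusb, the lysosomal glucuronidase that splits glucuronides, was at -0.51 in high-fat livers (SE 0.140, adjusted p = 0.239). In HDAC9 knockout livers Gulo, which makes vitamin C from gulonolactone, was at -0.59 (adjusted p = 0.715) and Rgn, the gulonolactonase before it, at -0.13 (adjusted p = 0.832), or -0.08 without HDAC9 knockout replicate 2. Dcxr, an L-xylulose reductase, was at 0.39 in HDAC6 knockout livers (adjusted p = 0.793) and Gulo at -0.27 (adjusted p = 0.919), or -0.10 without HDAC6 knockout replicate 3.

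Of 9 transporters that move glucuronides and other organic anions across the hepatocyte membrane, 7 were measured and 1 was called. Slco1a1, an uptake carrier, read 5.01, 7.39 and 6.70 in HDAC9 knockout livers, against 10.86, 9.77 and 8.88 in chow livers, and fell by 3.47 on the log2 scale (SE 0.589, adjusted p = 0.0463). The call held in 4 of 18 alternatives and was lost in 14, among them quantile normalization (adjusted p = 0.0584), with differences between -3.98 and -2.79 and adjusted p between 0.0343 and 0.436. Without HDAC9 knockout replicate 2 it was at -3.98 (adjusted p = 0.0567). Slco1b2, another uptake carrier, was at -0.27 there (adjusted p = 0.832). In high-fat livers Abcg2, an exporter into bile, was at -0.60 (SE 0.142, adjusted p = 0.134) and Abcc3, which exports glucuronides into blood, at -0.66 (SE 0.193, adjusted p = 0.268). Slco1a1 was at -1.84 in HDAC6 knockout livers (adjusted p = 0.727) and Abcc2, an exporter into bile, at 0.23 (adjusted p = 0.914).

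Of 20 regulators listed, 18 were measured and 0 passed against chow by limma. At an unadjusted p under 0.05, 3 were lower and 1 higher in HDAC6 knockout, 3 lower in HDAC9 knockout, and 4 lower and 1 higher in high-fat livers. Foxa2, a liver forkhead factor, was at -0.65 in high-fat livers (SE 0.137, adjusted p = 0.0807), and its relative Foxa1 was at -0.65 (adjusted p = 0.353). In HDAC9 knockout livers Ahr, a receptor for foreign compounds that lies near Hdac9, was at -0.79 (SE 0.183, adjusted p = 0.230) and the growth hormone receptor Ghr at -0.23 (adjusted p = 0.741). Without HDAC9 knockout replicate 2 Ghr was at -0.14 (adjusted p = 0.943). In HDAC6 knockout livers Onecut1, another liver transcription factor, was at -1.15 (SE 0.293, adjusted p = 0.518) and Cux2, a factor expressed more in female liver, at -0.52 (adjusted p = 0.722).

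Ugt2b1 and Ugt2b38 also belong to a list of 20 genes that male mouse liver expresses more than female, of which 13 were measured. All mice here were female. Of the 13, Cyp4a12a read between 2.67 and 2.97 on all 12 arrays, below the 25th percentile of gene means. Its direction in the counts that follow therefore carries little. In HDAC9 knockout livers 12 of the 13 had a lower mean (median -0.57), and 5 were lower at an unadjusted p under 0.05, against 3.6% of all genes. The 3 called lower by limma, against 0.0565% of all genes, were Ugt2b1, Slco1a1 and Hsd3b5, a steroid-metabolising enzyme. Of these, Ugt2b1 and Slco1a1 are the calls already given above. The list was also chosen with earlier results of these data known, so its counts are no separate support. Hsd3b5 was at -3.62 (SE 0.618, adjusted p = 0.0463), with a knockout mean of 4.49 near the 25th percentile of gene means, which limits that size. Its call held in 4 of 17 alternatives and was lost in 13, among them quantile normalization (adjusted p = 0.0612), with differences between -4.36 and -2.93 and adjusted p between 0.0262 and 0.436. In HDAC6 knockout livers 12 of 13 had a lower mean (median -0.39), with Hsd3b5 at -2.52 and Cyp2d9, a steroid hydroxylase, at -1.003 (adjusted p = 0.449 for both). Without HDAC6 knockout replicate 3, Cyp2d9 was at -0.63 (adjusted p = 0.602). In high-fat livers 13 of 13 had a lower mean (median -0.35), with Ugt2b38 and C8b, a complement component at -0.96 (adjusted p = 0.268), the smallest by p. None passed by limma in these 2 comparisons, where 7 and 4 were lower at an unadjusted p under 0.05, against 3.03% and 4.35% of all genes. Of all genes 54.4% had a lower mean in HDAC6 knockout, 54% in HDAC9 knockout and 52.8% in high-fat livers. The list was uneven within the chow group: its mean deviation was 1.05 on chow replicate 1, against 0.434 and 0.167 on replicates 2 and 3.

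Genes whose pattern over the 12 arrays was most like that of Ugt2b1 were sought among 5372 genes of sufficient level and range. Hsd3b2, a hydroxysteroid dehydrogenase, came first (Pearson r = 0.908, Spearman rho = 0.895, r = 0.767 within groups). Hsd3b5 followed (r = 0.896, 0.701 within groups), and then Cyp27a1, a mitochondrial sterol hydroxylase of bile acid synthesis (r = 0.892, 0.617 within groups). Hsd3b2 read 6.77, 6.47 and 7.20 in HDAC9 knockout livers, against 7.87, 7.82 and 7.83 in chow livers. All 3 knockout arrays lay below chow, as for Ugt2b1. Its difference was -1.03 (SE 0.200, adjusted p = 0.0863) and did not pass. The most opposite patterns were those of Gstt2, a glutathione transferase (r = -0.846), Saa1, an acute phase protein (r = -0.838), and Cd72, a B-cell surface protein (r = -0.833). Saa1 read 9.76, 10.97 and 9.35 in HDAC9 knockout livers, against 8.39, 8.78 and 8.23 in chow livers. The 12 arrays share 4 group means and RNA preparations, so these coefficients describe the arrays and carry no test.

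**Figure D5:**
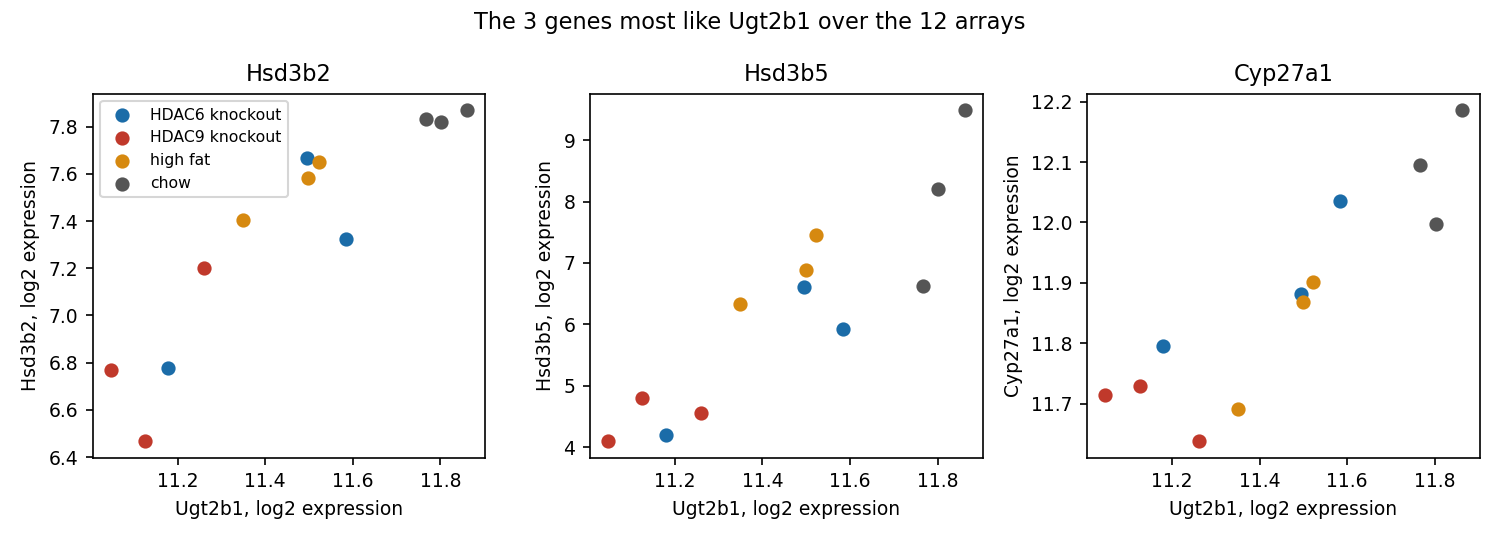
Log2 expression of Hsd3b2, Hsd3b5 and Cyp27a1 against Ugt2b1, with 1 point per array, coloured for HDAC6 knockout, HDAC9 knockout, high fat and chow. The 3 HDAC9 knockout arrays lie at the low end of Ugt2b1, from 11.05 to 11.26, together with HDAC6 knockout replicate 3 at 11.18, and the 3 chow arrays lie at the high end.

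Markers of other cell types are given beside these results. Of 10 Kupffer cell markers 9 were measured, and 8 of them had a higher mean in HDAC6 knockout livers than in chow livers, as did all 9 in HDAC9 knockout and in high-fat livers. None was called by limma, with 2, 5 and 6 higher at an unadjusted p under 0.05 in those 3 groups. Over all 12393 genes 5656, 5695 and 5852 had a higher mean in the same order, and 340, 308 and 512 were higher at that threshold. Their summed level (log2) ranged over 12.87 to 12.98 in HDAC6 knockout, 12.84 to 13.17 in HDAC9 knockout and 12.93 to 13.19 in high-fat livers, against 12.52 to 12.90 in chow livers. Exocrine pancreas markers summed to 9.24 to 12.35 in HDAC9 knockout and 9.79 to 10.66 in high-fat livers, against 8.97 to 9.33 in chow livers. In high-fat livers 1 marker, Cela1, carried that sum: it read 10.41, 9.90 and 9.37, against 8.72, 8.33 and 8.12 in chow livers (difference 1.501, SE 0.346, adjusted p = 0.119). Without Cela1 the other 11 markers summed to 7.83 to 12.04 in HDAC9 knockout and 7.81 to 8.02 in high-fat livers, against 7.79 to 7.83 in chow livers. Of 7 intestinal markers 6 were measured, with sums of 11.33 to 11.91 in high-fat livers and 10.77 to 10.88 in chow livers. Fabp2, a fatty acid binding protein that liver may also express, was the 1 intestinal marker called, and it was higher in high-fat livers (difference 0.98, SE 0.178, adjusted p = 0.0360). Its call was lost in 8 of 18 alternatives, with adjusted p up to 0.117, and without high-fat replicate 1 it was at 0.73 (adjusted p = 0.0566). The part of these cell types in the members' values was not tested.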

How the data were processed

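RNA of 12 whole-liver samples was read on Affymetrix arrays. The deposited values are log2 expression per probe set after RMA, per the submitters' processing notes; the software and chip definition are not given in the sources used here. Values were used as deposited.

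Of 22626 probe sets, 20380 had 1 gene symbol, 691 several and 1555 none. Each of 12393 genes was represented by its probe set of highest mean. Group means were fitted with limma 3.58.1 in R 4.3.3 (eBayes with a variance trend, 14.3 degrees of freedom, median SE 0.124, two-sided), with Benjamini-Hochberg adjustment over all 12393 genes in each of 6 comparisons and a threshold of 0.05. With 3 arrays against 3, an exact permutation test cannot give a p under 0.1. The procedure was tested on simulated data.

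Named were all members, called genes and the 2 of smallest p of each pathway list per comparison, and the 3 genes most like and most opposite to Ugt2b1 (above the 25th percentile of means, range of at least 0.5). Members and lists were chosen with earlier results of these data known. Promoters came from RefSeq (GRCm38.p6), searched with Python 3.11.15; figures used matplotlib 3.10.9. Alternatives changed the variance prior, scaling, filter, probe-set rule, groups fitted, replicate block and arrays left out.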

Additional observations from a re-analysis of the deposited data

How the results depend on the processing

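The call of Ugt2b1 in HDAC9 knockout livers was the one count of members that moved, out of 6 comparisons and 18 alternatives each. The count there, 1 as reported, was 0 without a trend in the variance prior (Ugt2b1 adjusted p = 0.0595), after removal of genes under the 50th percentile (0.0796), with every probe set on its own (0.0594), with only the 2 groups compared (0.131), and with HDAC9 knockout replicate 2 and high-fat replicate 1 both left out (difference -0.66, adjusted p = 0.132), an alternative chosen after seeing the data. It was also 0 each time a single HDAC9 knockout or chow array was left out. It stayed 1 with the other 7 alternatives, with adjusted p from 0.0223 to 0.0440. In the other 5 comparisons the count of members was 0 under all 18.

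Of 648 alternative values of member differences, 618 kept direction and side of the threshold, 11 lost the call, all of Ugt2b1 in HDAC9 knockout livers, and 19 changed sign, none of them called. With both arrays left out, Ugt2b5 in HDAC9 minus HDAC6 knockout became -0.0166, Ugt2b34 in high fat minus HDAC6 knockout 0.0585 and in high fat minus HDAC9 knockout 0.0101. Leaving out single arrays gave ranges that crossed 0 for Ugdh in HDAC6 knockout minus chow (-0.0818 to 0.347), HDAC9 knockout minus chow (-0.22 to 0.18) and HDAC9 minus HDAC6 knockout (-0.30 to 0.00222), for Ugt2a3 in HDAC6 knockout minus chow (-0.10 to 0.00135), for Ugt2b1 in high fat minus HDAC6 knockout (-0.0824 to 0.120), for Ugt2b34 in HDAC9 minus HDAC6 knockout (-0.0270 to 0.0483), high fat minus HDAC6 knockout (-0.146 to 0.0585) and high fat minus HDAC9 knockout (-0.161 to 0.0430), for Ugt2b5 in HDAC9 minus HDAC6 knockout (-0.0692 to 0.0924) and for Ugt3a2 in high fat minus HDAC9 knockout (-0.00858 to 0.13). The cause was not tested.

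Counts over all genes moved more: from 0 to 17 for HDAC9 knockout minus chow (12 as reported), 1 to 4 for HDAC6 knockout (2) and 13 to 36 for high fat (36), and, between the other groups, 1 to 4 for HDAC9 minus HDAC6 knockout (1), 8 to 56 for high fat minus HDAC6 knockout (18) and 5 to 97 for high fat minus HDAC9 knockout (54). After quantile normalization 4 genes were higher and 1 lower in HDAC9 knockout livers, against 5 and 7 as reported; scaling moved the median of all genes by at most 0.0235. The alternatives for genes of the pathway and marker lists were added after seeing the data.

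For same-numbered arrays of different groups, the correlations of their deviations from the group means lay between -0.152 and 0.148. For arrays of different numbers they lay between -0.238 and 0.241. In HDAC6 knockout minus chow the same-numbered pairs, at 0.0716, 0.102 and 0.129, lay above the other pairs, which reached 0.0110. No pairing was used in the main fit. With the replicate block, 17 genes were called in HDAC9 knockout minus chow and Ugt2b1 had an adjusted p of 0.0379. With 3 arrays a group, the width of the intervals sets what can be seen, and a p past no threshold does not show that a member was alike between groups.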
